A study of Mus musculus with 8 samples.

Results

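A set of 10 genes of the basal transcription machinery was followed across mouse embryonic fibroblasts that carry, lack or regain Taf4: the Taf4 paralogs Taf4a and Taf4b, and the TAF genes whose proteins pair through a histone fold, namely Taf12, Taf3, Taf6, Taf9, Taf8, Taf10, Taf11 and Taf13. The members were the rows of the deposited expression table listed under these 10 symbols, out of 23235 symbols in all, with the transcripts of a symbol summed. They comprised 12 transcripts, and all 10 genes passed the filter on low values that left 12025 genes for testing. RNA sequencing gave 8 libraries in 4 groups of 2, all from cells of strain C57BL/6 that the labels call MEF cells. Control cells (Taf4 loxp/-) hold 1 floxed and 1 null allele, although a second label field names them wild type. Knockout cells are Taf4 -/-. The rescue groups are knockout cells with a stable human transgene, either full-length (Taf4 -/- Tg: hTAF4 wt, clones 1 and 2) or without the TAFH domain (Taf4 -/- Tg: hTAF4 Δ, clones 1 and 2). The controls therefore share the null allele with every other group. The promoter of the transgene, the deleted exons and the origin of the clones are not given in the labels.

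TFIID is the complex that recognises core promoters and places RNA polymerase II there. It is built from the TATA-binding protein and TBP-associated factors (TAFs), many of which dimerise through histone folds, the same structural motif that joins histones in the nucleosome. The known pairs are TAF4 or its paralog TAF4B with TAF12, TAF6 with TAF9, TAF10 with either TAF8 or TAF3, and TAF11 with TAF13. TAF9, TAF10 and TAF12 are also subunits of the SAGA coactivator. TAFH is a conserved TAF4 domain that contacts other transcription factors. By its title, the study asked how TAF4 serves E proteins as a coactivator.

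The libraries named as replicates of control and of knockout differed by less than sampling noise. A chi-square of implied fragments, with an expected value of 1 per gene where only sampling separates libraries, came to 0.776 ± 0.0347 (SE) for control and 0.608 ± 0.0306 (SE) for knockout, against 1.64 ± 0.0640 (SE) between wild-type rescue clones and 2.39 ± 0.0951 (SE) between TAFH-deleted clones. Each of the first 2 pairs was therefore averaged and counted as 1 sample, so control and knockout values carry no replicate error. Levels are FPKM (fragments scaled to transcript length and to library size), which allows genes to be compared per length. Steps between low values implied 17.3 M fragments (M, mega) in each control library, 14.8 M in each knockout library, 17.1 and 16.9 M with wild-type TAF4 and 14.3 and 16.2 M with the deleted form. Of 10 fibroblast markers, 9 were at 1 FPKM or more in every library. Thy1, a fibroblast surface marker, was between 0 and 0.0773 FPKM. Pdgfra, another such marker, was at 51.3 and 52.2 FPKM in control and 52.9 and 56.7 with wild-type TAF4, against 17.4 and 17.3 in knockout and 11.5 and 8.81 with the deleted form. Vim differed the other way, at 120 and 121 FPKM in control and 140 in each knockout library. It was at 121 and 122 with wild-type TAF4 and 146 and 130 with the deleted form. Summed over the 10 markers, levels were 774 FPKM in each control library and 782 to 783 in knockout. With wild-type TAF4 that sum was 810 to 815, and with the deleted form 650 to 763. All 5 epithelial markers and all 4 endothelial markers stayed under 1 FPKM. Of the leukocyte markers Cd68 was at 1.05 to 3.45 FPKM, and of the muscle markers Acta1 was at 0.301 to 3.08. The leukocyte marker Csf1r was at 1.09 FPKM in TAFH-deleted clone 2 and at most 0.458 elsewhere. The summed level of 3 neural markers was 69.9 to 71.6 FPKM in control, 7.46 to 8.07 in knockout, 10.3 to 10.9 with wild-type TAF4 and 1.69 to 3.21 with the deleted form, Stmn2 alone being at 57.1 and 56.6 in control and at most 0.616 elsewhere. The part of these marker differences in the results below was not tested.

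Taf4a, the mouse Taf4 gene targeted in this study (chromosome 2, 179646851 to 179711351, mm9), did not have lower values in the libraries labelled knockout. Control libraries held 11.1 and 11.5 FPKM of it, and those labelled knockout 12.5 and 12.4. The wild-type rescue clones held 14.5 and 15.0 FPKM and the TAFH-deleted clones 14.7 and 19.2. All 4 rescue libraries lay above control and knockout, and TAFH-deleted clone 2 was the highest. Between 775 and 1313 fragments stood behind each of these values, a counting error of 2.76% to 3.59%. The value covers the whole annotated transcript, and the deleted part is not given in the labels. Reads from the human transgene that align to the mouse gene cannot be told apart from mouse transcripts, and this level checks no label. In bulk RNA, fewer cells of a type and less RNA per cell cannot be told apart either.

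Taf4b (chromosome 18), the paralog that can take the place of TAF4 next to TAF12 and is best known from ovary and testis, was the lowest member in all 8 libraries. Control libraries held 2.31 and 2.64 FPKM, knockout libraries 2.10 and 1.95, and wild-type rescue clones 1.82 and 2.07. The TAFH-deleted clones were far apart, at 1.64 FPKM in clone 1 and 6.13 in clone 2. Every library but the last lay between 1.64 and 2.64 FPKM, and knockout did not exceed control in FPKM. That direction depended on scaling. Under quantile normalization Taf4b was 0.15 (log2) higher in knockout than in control (adjusted p = 0.955, limma). All libraries without full-length TAF4 then lay above all those with it, as they did for 14.1% of all tested genes. Clone 2 exceeded clone 1 by 1.43 on the log2(FPKM + 1) scale, a rise of that size or more between these clones being found in 1.46% of tested genes. In all, 7.68% of tested genes were at least 2-fold apart between these clones, in either direction. The implied fragments ranged from 116 to 492, so counting error was between 4.51% and 9.29%. Per fragment and length, Taf4b reached 0.208 to 0.229 of the Taf4a level in control, 0.157 to 0.168 in knockout, and 0.126 to 0.138 with wild-type TAF4. In the TAFH-deleted clones this ratio was 0.112 and 0.320. Of 8 markers of germ, pluripotent and granulosa cells, where Taf4b is known to act, 4 stayed under 1 FPKM throughout and 2 were at 1 FPKM or more in every library. The summed level of these markers was 11.4 to 12.2 FPKM in control, 12.0 to 13.4 in knockout, 15.8 to 16.4 with wild-type TAF4 and 11.7 to 12.0 with the deleted form. Inha alone made up most of it, at 6.97 to 10.9 FPKM. Ddx4 was at 0.564 to 1.04 FPKM in control and wild-type rescue libraries and at most 0.132 in the others. Sycp3 did not follow that grouping, at 2.62 and 2.68 FPKM in control and 3.09 and 3.35 in knockout. It was at 2.22 and 3.11 with wild-type TAF4 and 4.06 and 1.47 with the deleted form. The part of these markers in the Taf4b levels was not tested.

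**Figure D1:**
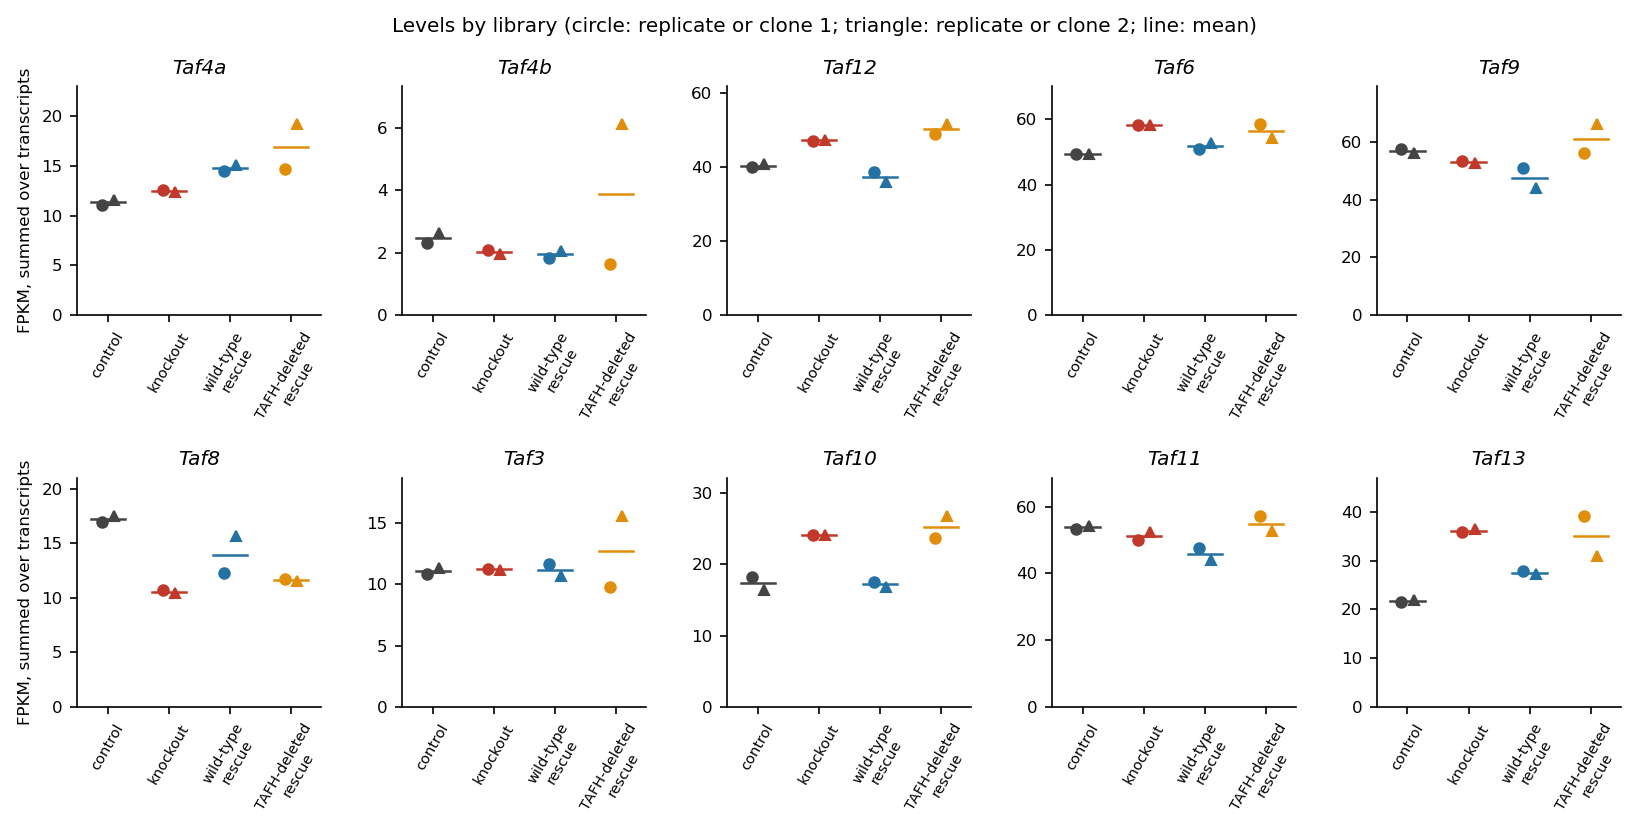
Levels in FPKM (vertical axis, from 0) of the 10 genes in each of the 8 libraries, by group on the horizontal axis. Circles are replicate or clone 1, triangles replicate or clone 2 and lines the mean of 2 libraries; Taf10 sits at 23.7 to 26.8 FPKM in the knockout and TAFH-deleted libraries and at 16.4 to 18.2 in the others.

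The members covered a wide range of levels per length. In control the order of the mean FPKM was Taf11 (53.8), Taf6 (49.4), Taf12 (40.4), Taf9 without a transcript of another gene described further on (26.4), Taf13 (21.7), Taf10 (17.3), Taf8 (17.2), Taf4a (11.3), Taf3 (11.1) and Taf4b (2.47). Neighbouring values that overlapped between libraries were those of Taf10 and Taf8 and those of Taf4a and Taf3. In knockout Taf6 led at 58.3 FPKM, Taf13 stood at 36.1 and Taf8 was next to last at 10.5. Both Taf4 genes together amounted to 13.8 FPKM in control and 14.5 in knockout, against 40.4 and 47.3 for their partner Taf12.

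Taf12, which encodes the histone-fold partner of TAF4 and TAF4B (chromosome 4, 131830290 to 131849244, mm9), was higher where full-length TAF4 was missing. Control libraries held 40.0 and 40.8 FPKM, knockout libraries 47.1 and 47.4, wild-type rescue clones 38.6 and 36.1, and TAFH-deleted clones 49.1 and 51.7. All 4 libraries of knockout and TAFH-deleted cells lay above all 4 of control and wild-type rescue, as they did for 14.0% of all tested genes. The TAFH-deleted clones exceeded the wild-type clones by 0.42 ± 0.08 (log2, SE), the smallest adjusted p among the members (adjusted p = 0.0754, limma), and so did not pass the threshold of 0.05. Without TAFH-deleted clone 1 or clone 2 the adjusted p was 0.00371 and 0.0109 (limma), in fits that called 55.9% and 40% of all tested genes. Without wild-type rescue clone 1 or clone 2 it was 0.649 and 0.626, in fits that called none. The ratio of Taf4a to Taf12 was 0.277 and 0.283 in control and 0.266 and 0.262 in knockout. It was 0.375 and 0.417 with wild-type TAF4 and 0.299 and 0.371 with the deleted form. Both Taf4a, which may include transgene reads, and Taf12 enter that ratio.

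Taf6 (chromosome 5, 138613249 to 138628414, mm9), whose product dimerises with TAF9 in the core of TFIID, varied least among the members, its highest library being 1.19 times its lowest. It was at 49.5 and 49.4 FPKM in control, 58.2 and 58.4 in knockout, 50.9 and 52.9 with wild-type TAF4, and 58.6 and 54.2 with the deleted form. The groups with and without full-length TAF4 did not overlap, at most 52.9 against at least 54.2 FPKM, and under quantile normalization they did overlap. The counting error of Taf6 was 2.33% to 2.41% per library, similar in size to that gap. The table gives Taf6 and Ap4m1 a common locus, and whether the libraries keep strand is not given in the sources used here.

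Taf9, partner of Taf6, had 3 rows in the table, and 1 of them belongs to another gene. RefSeq assigns it to Ak6, an adenylate kinase gene to which the table gives the same locus as Taf9 on chromosome 13 (101421298 to 101436368, mm9). This row made up 39.4% to 56.1% of the FPKM summed under the symbol Taf9. It was at 31.1 and 29.7 FPKM in control, 24.9 and 21.4 in knockout, 23.2 and 17.4 with wild-type TAF4, and 24.2 and 37.1 with the deleted form. The 2 transcripts of Taf9 itself summed to 26.5 and 26.4 FPKM in control, 28.4 and 31.4 in knockout, 27.7 and 26.8 with wild-type TAF4, and 31.9 and 29.0 with the deleted form. Without Ak6 the lowest library lacking full-length TAF4, at 28.4 FPKM, lay above the highest one with it, at 27.7. Counting error per library was 4.66% to 5.25% for 1 Taf9 transcript and 9.82% to 19.7% for the other, so this gap lies within it. With Ak6 these libraries overlapped, and the sum ran from 44.2 to 66.1 FPKM. The knockout difference from control was -0.10 ± 0.18 (log2, SE) with Ak6 and 0.17 without it, and neither passed (adjusted p = 0.866 and 0.728, limma). How fragments shared by overlapping transcripts were divided is not given in the sources used here, so the split between these rows is uncertain. The ratio of Taf6 to Taf9 without Ak6 was between 1.84 and 2.05 in all 8 libraries, the narrowest ratio of the histone-fold pairs.

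**Figure D2:**
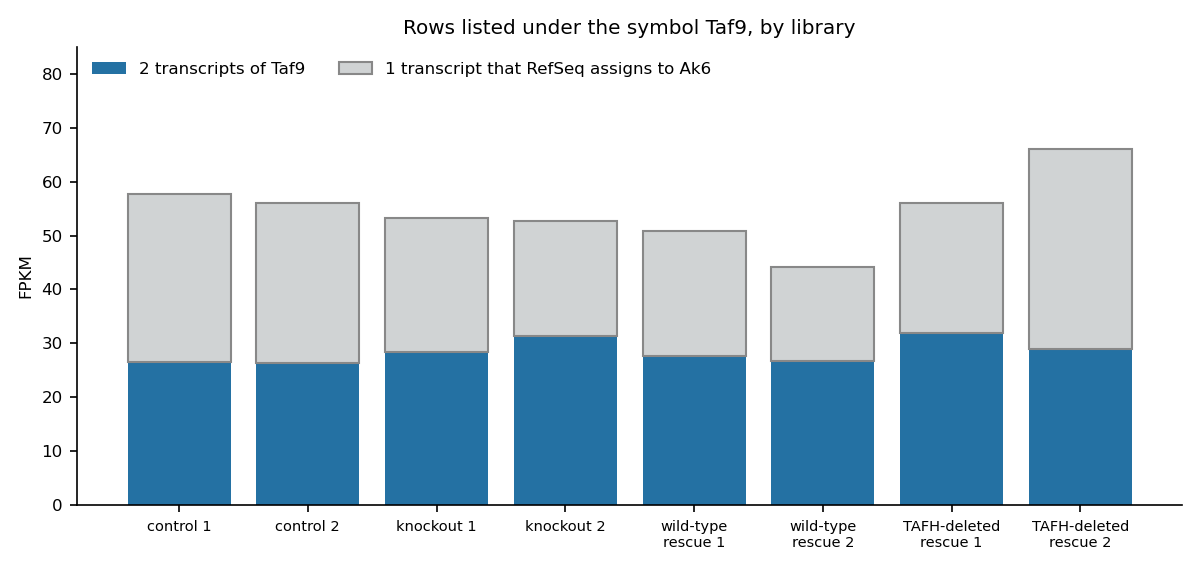
FPKM (vertical axis) of the rows listed under the symbol Taf9 in each of the 8 libraries (horizontal axis), with the 2 Taf9 transcripts in blue and the transcript that RefSeq assigns to Ak6 in grey. The blue part stays between 26.4 and 31.9 FPKM while the grey part runs from 17.4 to 37.1.

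RefSeq gives Taf9 and Ak6 a common start, and Taf9 a second one a short way downstream. The 250 bases before the common start (chr13:100651093-100651342, plus strand, GRCm38.p6) are shown because 1 sequence precedes 2 genes that the table sums under 1 symbol; none of the motifs searched below occurs in it.
Taf9 and Ak6: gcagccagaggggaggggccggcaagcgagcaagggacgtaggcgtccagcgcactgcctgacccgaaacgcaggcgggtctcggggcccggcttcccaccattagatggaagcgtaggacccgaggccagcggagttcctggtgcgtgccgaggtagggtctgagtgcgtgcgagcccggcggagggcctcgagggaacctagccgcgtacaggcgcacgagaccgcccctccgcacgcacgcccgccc

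Taf10 and Taf8, which encode partners in one histone-fold pair, differed in opposite directions. Taf10 (chromosome 7, within 112880244 to 112892852, mm9) was at 18.2 and 16.4 FPKM in control, 24.2 in each knockout library, 17.6 and 16.8 with wild-type TAF4, and 23.7 and 26.8 with the deleted form. Taf8 (chromosome 17, 47624999 to 47639236, mm9) was at 17.0 and 17.5 FPKM in control, 10.7 and 10.4 in knockout, 12.2 and 15.7 with wild-type TAF4, and 11.7 and 11.6 with the deleted form. Neither gene's libraries with and without full-length TAF4 overlapped: Taf10 was higher and Taf8 lower where it was missing. The same held for 14.0% of all tested genes as higher and 12.4% as lower. The knockout difference from control was 0.46 ± 0.17 (log2, SE) for Taf10 and -0.66 ± 0.25 for Taf8, and neither passed the limma test (adjusted p = 0.540 and 0.541). No tested gene passed in that comparison. The ratio of Taf8 to Taf10 was 0.930 and 1.07 in control, 0.441 and 0.431 in knockout, 0.696 and 0.933 with wild-type TAF4, and 0.493 and 0.431 with the deleted form. Taf10 rests on few fragments, 157 to 241 per library, a counting error of 6.44% to 7.98%. Its locus in the table also holds Ilk, at 63.0 to 74.2 FPKM, and Rrp8, at 25.3 to 38.9 FPKM.

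Taf3, the other partner of Taf10 and a reader of trimethylated histone H3 at active promoters (chromosome 2, 9836179 to 9970236, mm9), was nearly level in 7 libraries. It was at 10.9 and 11.4 FPKM in control, 11.3 and 11.2 in knockout, 11.7 and 10.7 with wild-type TAF4, and 9.81 and 15.6 with the deleted form. The only library apart was TAFH-deleted clone 2, which was 0.62 above clone 1 on the log2(FPKM + 1) scale. The same clone was the highest library for Taf4a, Taf4b, Taf12 and Taf10, and for Taf9 with its Ak6 transcript.

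Taf11 and Taf13, which encode the pair near TBP in TFIID, were at unequal levels. Taf11 (chromosome 17, 28038073 to 28044669, mm9) was at 53.3 and 54.3 FPKM in control, 49.8 and 52.4 in knockout, 47.4 and 44.1 with wild-type TAF4, and 57.3 and 52.6 with the deleted form. Taf13 (chromosome 3, 108374617 to 108384986, mm9) was at 21.4 and 21.9 FPKM in control, 35.8 and 36.4 in knockout, 27.8 and 27.3 with wild-type TAF4, and 39.2 and 30.9 with the deleted form. Control was lowest for Taf13, the wild-type clones lay between, and all 4 libraries without full-length TAF4 were higher. Taf13 had the largest knockout difference of the members, 0.71 ± 0.20 (log2, SE), at an adjusted p of 0.464 (limma), where no tested gene passed. The ratio of Taf11 to Taf13 was 2.49 and 2.48 in control and 1.39 to 1.71 in the other 6 libraries.

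**Figure D3:**
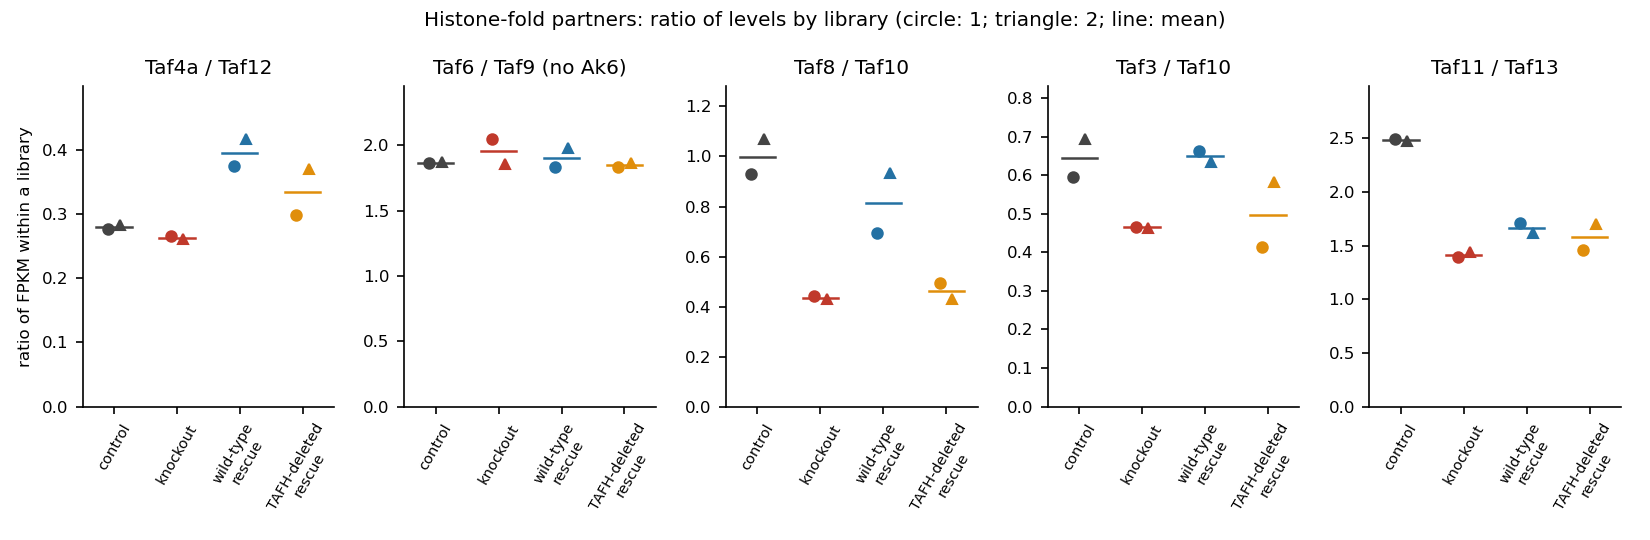
Ratio of FPKM within a library (vertical axis, from 0) for 5 pairs of histone-fold partners, by group on the horizontal axis, with circles for replicate or clone 1, triangles for 2 and lines for their mean. Taf6 over Taf9 without the Ak6 transcript stays within 1.84 to 2.05, while Taf8 over Taf10 is 0.696 to 1.07 with full-length TAF4 and 0.431 to 0.493 without it.

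The 4 promoters below are those of members whose libraries with and without full-length TAF4 did not overlap also under quantile normalization. Each shows the 250 bases before the RefSeq start (GRCm38.p6), 5′ to 3′ on the gene's strand. Capitals mark matches, on either strand, to the E-box CANNTG, a sequence class that includes the sites of E proteins. They also mark CCGGAAG, a core bound by ETS factors, and TATAAA, the TATA box that TBP recognises. The middle bases NN of the E-box were left free, so a match is not shown to be an E protein site. No 2 matches overlap in these windows. Taf12 lies at chr4:132274125-132274374 (plus), Taf13 at chr3:108571449-108571698 (plus), Taf10 at chr7:105744339-105744588 (minus) and Taf8 at chr17:47502292-47502541 (minus).
Taf12: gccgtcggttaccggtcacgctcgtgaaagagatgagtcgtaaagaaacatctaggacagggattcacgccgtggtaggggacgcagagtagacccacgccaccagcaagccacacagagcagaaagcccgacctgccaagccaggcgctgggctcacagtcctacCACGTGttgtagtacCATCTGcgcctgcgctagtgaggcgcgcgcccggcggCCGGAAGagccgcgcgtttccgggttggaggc
Taf13: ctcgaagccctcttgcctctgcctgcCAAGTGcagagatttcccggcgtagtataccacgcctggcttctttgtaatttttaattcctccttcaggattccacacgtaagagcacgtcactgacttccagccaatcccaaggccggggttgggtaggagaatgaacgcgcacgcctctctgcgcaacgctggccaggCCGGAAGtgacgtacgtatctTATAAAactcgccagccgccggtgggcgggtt
Taf10: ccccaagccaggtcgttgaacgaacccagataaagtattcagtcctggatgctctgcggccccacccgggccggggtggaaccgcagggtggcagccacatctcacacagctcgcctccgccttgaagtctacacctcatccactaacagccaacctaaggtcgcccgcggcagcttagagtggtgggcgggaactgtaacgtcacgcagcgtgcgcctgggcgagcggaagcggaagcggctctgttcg
Taf8: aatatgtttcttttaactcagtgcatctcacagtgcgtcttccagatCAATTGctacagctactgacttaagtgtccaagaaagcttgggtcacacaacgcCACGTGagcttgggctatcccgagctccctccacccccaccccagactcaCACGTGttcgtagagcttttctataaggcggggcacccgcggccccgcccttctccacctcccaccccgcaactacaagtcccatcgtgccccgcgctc

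Taf12 had E-boxes CACGTG and CATCTG starting 84 and 69 bases before the start, and an ETS core 32 bases before it. Taf13 had 1 E-box, an ETS core 53 bases before the start, and a TATA box 32 bases before it. Taf10 had none of the motifs, and Taf8 had 3 E-boxes, 2 of them CACGTG. Members whose promoters are not shown had these motifs too. Taf3 had 2 E-boxes and an ETS core, and Taf6 had 2 E-boxes and a TATAAA match. Taf11 had a TATAAA match and an ETS core in separate windows, and Taf4a had none. Among 32807 windows of the same length an E-box was found in 66.2%, the ETS core in 6.91% and the TATA box in 12.4%. Windows were matched for 9 members, 12 windows in all. No window was matched for Taf4b.

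None of the 10 members passed limma's test, 0 of 10 in each of 4 comparisons. In knockout against control no gene passed, even at a log2 difference of -5.72, the smallest adjusted p being 0.128 (limma). None passed at up to 4.81 in wild-type rescue against knockout, or down to -4.02 in TAFH-deleted rescue against knockout. Not passing in these comparisons therefore does not show that a member was unchanged. Among all tested genes 0% were called in knockout against control, 0% in wild-type rescue against knockout, 0% in TAFH-deleted rescue against knockout and 2.62% in TAFH-deleted against wild-type rescue. At an unadjusted p under 0.05 the members counted 1 (Taf13), 2 (Taf12 and Taf10), 0, and 4 (Taf12, Taf10, Taf9 with its Ak6 transcript, and Taf11) in that order, against 9.21%, 13.3%, 6.56% and 28.8% of tested genes. Without Ak6 the Taf9 difference between the forms was 0.15 in place of 0.35 (adjusted p = 0.362, limma). No member differed 2-fold in any comparison on the log2(FPKM + 1) scale. Of all tested genes, 0.798% were at least 2-fold higher and 5.76% lower in knockout than in control, 2.85% and 1.1% in wild-type rescue than in knockout, 0.715% and 2.94% in TAFH-deleted rescue than in knockout, and 2.6% and 5.94% in TAFH-deleted than in wild-type rescue. The 3 comparisons with knockout share its sample, and control and knockout, with 1 sample each, borrow their spread from the rescue clones. The calls turned on which clones set the spread. Without a TAFH-deleted clone the spread came from the wild-type clones alone. Knockout against control then called Taf6, Taf10 and Taf13, beside 22.6% of all tested genes without clone 1 and 22.1% without clone 2. Wild-type rescue against knockout called Taf12, Taf10 and Taf13, beside 26.7% and 26.6%, and neither comparison uses these clones. Between the forms, with 1 TAFH-deleted library left, 7 members were called without clone 1 and 4 without clone 2, beside 55.9% and 40% of all genes. Without either wild-type rescue clone no member and no gene was called in any comparison. In the authors' deposited table, from Cuffdiff, 6 of 12 member transcripts were called in knockout against control, where it called 53.8% of transcripts: those of Taf6, Taf8, Taf10, Taf12 and Taf13, and the Ak6 transcript. The authors' deposited table called 1 of 12, that of Taf8, in wild-type rescue against knockout (25.8% of transcripts) and 0 of 12 in TAFH-deleted rescue against knockout (0.957%).

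By direction, 6 of 10 members were higher in knockout than in control, with a median log2 difference of 0.07, against 45.1% of all tested genes and their median of -0.03. Without Ak6 these were 7 of 10 and 0.15. With wild-type TAF4, 2 of 10 were higher than in knockout, with a median of -0.16, against 45.3% and -0.04 for all genes. With the deleted form, 8 of 10 were higher than in knockout, with a median of 0.12, against 55.7% and 0.03. Between the forms, 9 of 10 members were higher in TAFH-deleted than in wild-type clones, all but Taf8, with a median of 0.29 (0.22 without Ak6), against 56% and 0.06 for all genes. Of 13 other TFIID and SAGA genes, described further on, 12 were higher too, with a median of 0.25. Single clones carried some of these differences. Without TAFH-deleted clone 2, Taf4a (0.00), Taf4b (-0.15) and Taf3 (-0.17) were no longer higher than in the wild-type clones. Without clone 1 the same difference was 0.36 for Taf4a, 1.28 for Taf4b and 0.45 for Taf3, from the lone clone 2.

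**Figure D4:**
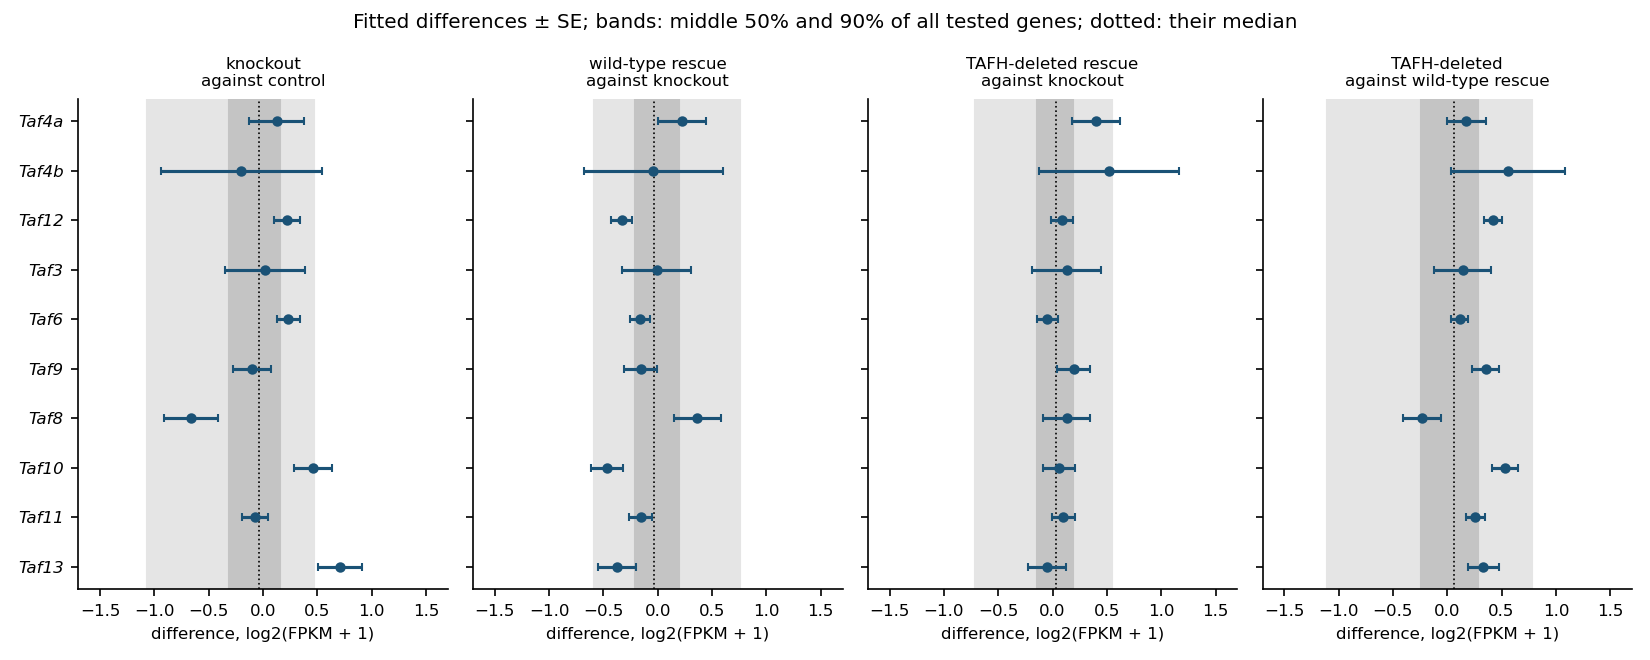
Fitted differences on the log2(FPKM + 1) scale (horizontal axes) with their SE for the 10 members (vertical axis) in the 4 comparisons, over bands holding the middle 50% and 90% of all 12025 tested genes and a dotted line at their median. Taf8 and Taf13 lie furthest apart in knockout against control, at -0.66 and 0.71.

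Grouping the libraries by the presence of full-length TAF4 separated 5 of the 10 members without overlap. Taf12, Taf6, Taf10 and Taf13 were higher in all 4 libraries of knockout and TAFH-deleted cells than in all 4 of control and wild-type rescue cells, and Taf8 was lower. Among all tested genes 14.0% were separated as higher and 12.4% as lower. This grouping was chosen after the values were seen and has no test here. Without Ak6, Taf9 joined the higher genes by a gap within its counting error, which made 6 of 10. Leaving out 1 rescue clone cannot undo a separation, added none among the members, and raised the shares of all genes to at most 20.6% higher and 18.7% lower. Under quantile normalization the count was again 5, with Taf4b in place of Taf6. The shares of all tested genes were then 14.1% higher and 8.96% lower. Library depth and level moved with this grouping. The libraries with full-length TAF4 had 16.9 to 17.3 M implied fragments and those without it 14.3 to 16.2 M. Of genes with a mean of 20 to 60 FPKM, the class of Taf12, Taf6, Taf10 and Taf13, 17.3% were separated as higher and 7.16% as lower. Of those at 5 to 20 FPKM, the class of Taf8, 8.38% were higher and 15.4% lower, and at 60 FPKM or more 42.9% were higher. The implied fragments were also set against the possible read starts, counting each base on both strands. Were no start used more than once, they would fill up to 40.7% in Taf6 and up to 35.6% in Taf12. In Taf13 this share was at most 23.5%, in Taf10 15.9% and in Taf8 14.0%. The read starts themselves were not observed. The part of depth and level in these separations was not tested.

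Of the rest of TFIID and its relatives, a list of 16 names of which 15 were in the table and 13 were tested, none passed in any comparison (limma, 0 of 13 in each). At an unadjusted p under 0.05 they counted 0, 3, 1 and 4 in the 4 comparisons, in the order given above. The members of this list furthest above control in knockout were Taf5, a WD-repeat scaffold of TFIID, with 13.5 FPKM against 9.10 in control, and Taf9b, the paralog of Taf9, with 10.5 against 7.15. Furthest below were Supt3h and Tada1, histone-fold subunits of SAGA, with 20.2 FPKM against 28.7 and 16.0 against 22.5. With wild-type TAF4, Tada1 at 21.5 ± 2.31 FPKM (SD, n = 2) and Taf7 at 6.05 ± 0.107, against 5.18 in knockout, were furthest above knockout. Taf1, the subunit that contacts acetylated histones, was at 9.11 ± 0.136 FPKM against 14.0 in knockout, and with Taf9b at 6.90 ± 1.18 was furthest below. With the deleted form, Tada1 at 24.4 ± 2.25 FPKM and Supt3h at 25.7 ± 3.06 were furthest above knockout. Taf5 at 11.5 ± 0.730 FPKM and Taf15 at 49.4 ± 2.07, against 53.3 in knockout, were furthest below. Between the forms, Taf1 (log2 difference 0.70 ± 0.14, SE) and Supt3h (0.65 ± 0.13) were furthest above the wild-type clones without passing (adjusted p = 0.0792 and 0.0789, limma), and Taf7 alone was lower (-0.21 ± 0.18). In the grouping by full-length TAF4, Taf5 and Taf9b were higher without overlap and the other 11 overlapped, 0 of 13 being lower. Across all tested genes those shares were 14.0% higher and 12.4% lower. Tbp, the TATA-binding protein, was at 33.2 and 33.8 FPKM in control, 27.5 and 25.5 in knockout, 25.2 and 26.1 with wild-type TAF4, and 30.9 and 34.1 with the deleted form. Taf7l, the germ cell paralog of Taf7, was at most 0.267 FPKM, and Tbpl2 was listed at 0 in every library.

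**Figure D5:**
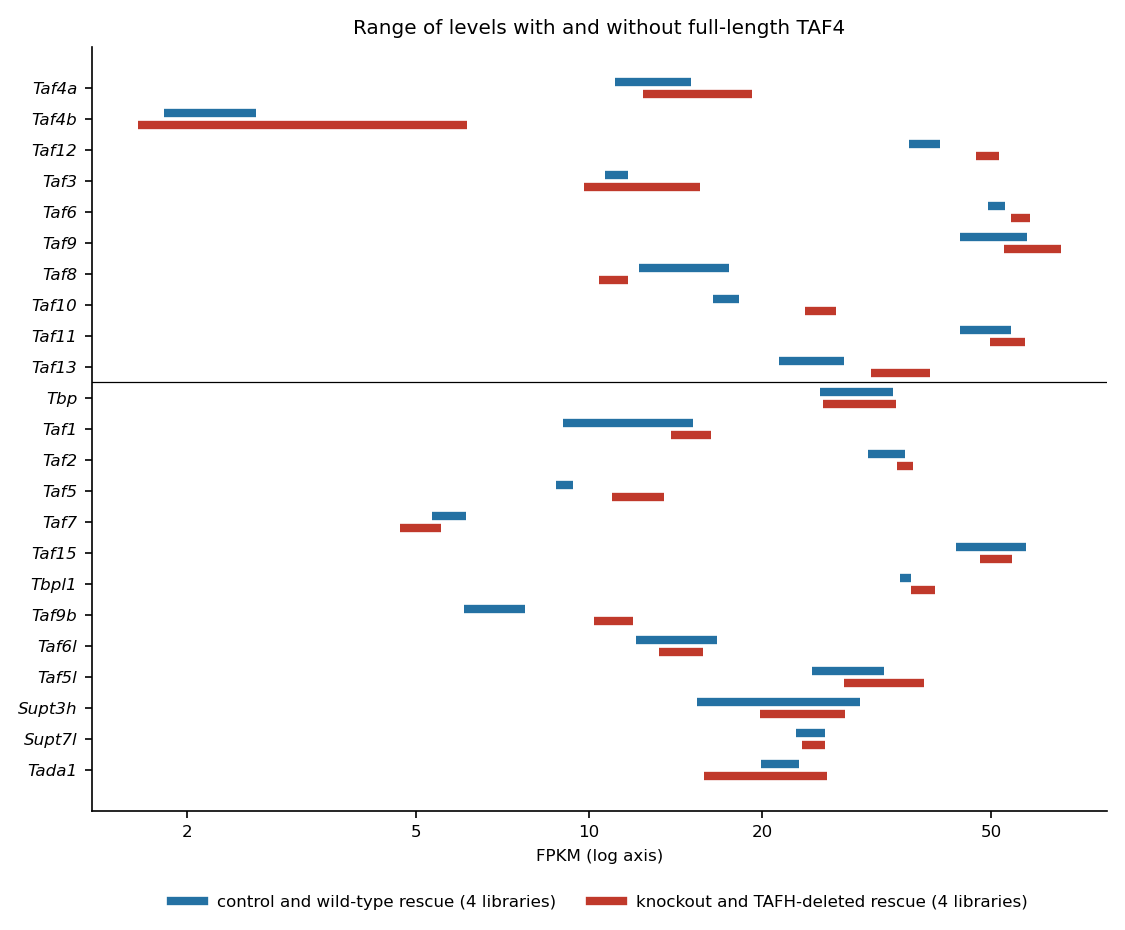
Range of FPKM (horizontal log axis) over the 4 libraries with full-length TAF4 (blue) and the 4 without (red) for the 10 members, above the line, and 13 other TFIID and SAGA genes. The bars do not overlap for Taf12, Taf6, Taf8, Taf10 and Taf13 among the members and for Taf5 and Taf9b among the others. Of all tested genes 26.4% do not overlap, in either direction.

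The genes most like Taf4a and Taf4b were found by the Euclidean distance between mean-centred log2(FPKM + 1) values over the 6 samples. Nearest to Taf4a were 3110045C21Rik (distance 0.158), Hmga2, an architectural chromatin protein (0.164), Zfp747 (0.168), Efcab4a (0.169) and Shq1 (0.170). Hmga2 was at 30.6 and 29.2 FPKM in control, 29.4 and 28.6 in knockout, 36.7 and 34.3 with wild-type TAF4, and 36.5 and 45.9 with the deleted form. Nearest to Taf4b were Usp31 (distance 0.191), the RNA acetyltransferase gene Nat10 (0.227), Gpatch4 (0.252), Setd6 (0.254) and Apoh (0.269). Nat10 was at 18.0 and 18.2 FPKM in control, 15.9 and 15.1 in knockout, 14.1 and 16.6 with wild-type TAF4, and 13.4 and 32.2 with the deleted form. All 5 genes nearest to Taf4b were highest in TAFH-deleted clone 2, the library that sets its pattern.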

How the data were processed

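RNA of 8 libraries from mouse embryonic fibroblasts was sequenced with an Illumina mRNA protocol, per the labels' protocols. Per the submitters' processing notes, CASAVA 1.8, TopHat, Cufflinks and Cuffdiff were used with mm9. Other versions, scaling, masking and strand are not given in the sources used here. The authors deposited FPKM for 30028 RefSeq transcripts in each library, with transcript lengths in bases, their group means, and Cuffdiff p-values and q-values per transcript. Accessions were matched to RefSeq symbols of GRCm38.p6 for names only (96.2% matched), and 47 symbols changed to dates were restored. Coordinates are mm9, counted from 1, except promoters (GRCm38.p6).

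FPKM were summed per gene and chromosome. Genes reaching 1 FPKM or more in 2 or more libraries, with a transcript of at least 300 bases, were tested on log2(FPKM + 1) with limma 3.58.1 (trend, two-sided, Benjamini-Hochberg at 0.05). All groups were fitted together as 6 samples with 2 residual and 2.15 prior degrees of freedom. A fold change on this scale understates changes of low genes. Fragments were implied from FPKM steps within 0.05 fragments in single-transcript genes of at least 1000 bases, where 96.3% to 97.4% of low values came out whole. The chi-square of library pairs used genes with 4 to 14 summed fragments. Nothing in the labels says that libraries come from separate cultures, so the p-values reflect the spread of these libraries alone, possibly a technical one.

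Members and lists were chosen with earlier results of these data known. Named genes were all members, per comparison the 2 largest rises and falls of the other TFIID and SAGA genes, genes sharing a member's locus, and the 5 genes nearest in pattern to Taf4a and to Taf4b. Alternatives were the pseudocount, filters, quantile normalization, counting all 8 libraries, a replicate block, the groups in the fit, 1 transcript per gene and leaving out each library. Leaving out the Ak6 transcript, and all alternatives of the grouping by full-length TAF4, were added after seeing the data.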

Additional observations from a re-analysis of the deposited data

Results flagged for a closer look

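Taf12, Taf9 and Taf11 were set apart because both wild-type rescue clones lay below knockout and both TAFH-deleted clones above it. The log2 difference of the forms was 0.42 for Taf12, 0.35 for Taf9 with its Ak6 transcript and 0.26 for Taf11, with adjusted p = 0.0754, 0.164 and 0.153 (limma), so none passed. Among all tested genes 26.6% had clones of the 2 forms on opposite sides of knockout. The place of Taf9 rests on the Ak6 row: without it knockout was at 29.9 FPKM on average and the TAFH-deleted clones at 31.9 and 29.0, on both sides of it.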

How the results depend on the processing

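Of the recomputed log2 differences of members, 644 kept direction and side of the threshold, 49 newly passed and 13 changed direction. Changing a filter, or leaving out a library outside the comparison, cannot change a member's difference. The 644 therefore overstate how stable the directions were. The calls hung on how the spread was estimated. Counting all 8 libraries called 5, 3 and 4 members in knockout against control, wild-type rescue against knockout and TAFH-deleted against wild-type rescue, and 2857, 2998 and 4566 of all genes, with 1074 in TAFH-deleted rescue against knockout. With a replicate block these were 4, 2 and 3 members and 2019, 2232, 3921 and 461 genes. The replicate numbers share only a name: deviations of same-numbered libraries correlated between -0.08 and 0.06. With only the compared groups in the fit, wild-type rescue against knockout called 3 members and 3169 genes; knockout against control could not be fitted so. With short transcripts kept the genes called were 15, 21, 13 and 106 in the order of the report. Without a filter on low values 213 were called in knockout against control and 0 between the forms. The 315 genes called between the forms became 142 with a pseudocount of 0.1, 80 with at least 5 FPKM, 175 under quantile normalization and 98 with 1 transcript per gene. Leaving out 1 library gave 0 to 3 members and 0 to 2712 genes in knockout against control, 0 to 3 and 0 to 3211 in wild-type rescue against knockout, 0 to 2 and 0 to 4013 in TAFH-deleted rescue against knockout, and 0 to 7 and 0 to 6722 between the forms; the high counts came without a TAFH-deleted clone, and without a wild-type rescue clone none was called. Directions changed for Taf4b in knockout against control under quantile normalization (0.15) and for Taf9 there without Ak6 (0.17). Leaving out 1 library gave log2 differences of both signs for Taf3 in knockout against control (-0.0138 to 0.0456), and for Taf4b (-0.101 to 0.0194) and Taf3 (-0.0718 to 0.0491) in wild-type rescue against knockout. It did so for Taf4b (-0.195 to 1.24), Taf3 (-0.180 to 0.440), Taf6 (-0.104 to 0.00656), Taf10 (-0.0274 to 0.145) and Taf13 (-0.216 to 0.116) in TAFH-deleted rescue against knockout, and for Taf4a (-0.00452 to 0.358), Taf4b (-0.155 to 1.28) and Taf3 (-0.169 to 0.452) between the forms. Apart from these constructions, the cause was not tested. Depth limits Taf4b and Taf10 most.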
